A study of Mus musculus with 4 samples.

Results

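Transcripts of 9 poly(ADP-ribose) polymerase (PARP) genes and of their ubiquitin ligase partner Dtx3l were followed in AML12, an established mouse hepatocyte line derived from the CD-1 strain (line MT42). Cells transfected with the PAV-TBG-P2A-GFP-Chrna4 plasmid (Chrna4 over-expression, replicates 1 and 2) were set against cells transfected with the pCMV6-AC-GFP plasmid (control, replicates 1 and 3), with 1 polyA-selected RNA-seq library per replicate. Chrna4 encodes an alpha subunit of nicotinic acetylcholine receptors. All cells were grown with insulin, transferrin, selenium, dexamethasone and serum. TBG names a promoter active in hepatocytes and CMV a viral promoter active in most cells. By their names the plasmids thus differ in promoter and backbone as well as in the insert, so the insert and the rest of the plasmid cannot be told apart. The 10 members, of 13422 genes in the deposited table, were chosen by symbol as members of the family with the difference between these same 4 libraries already known. Their difference between the groups is therefore given as a description, with no test. All 10 passed the minimum of a mean of 1 CPM, as did 11298 genes in all.

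PARP enzymes transfer ADP-ribose from NAD to proteins or nucleic acids. Parp1 and Parp2 build long chains of ADP-ribose at DNA breaks, where the chains recruit repair factors, and Parp3 acts with them in break repair by adding single units. A further set adds single units or lacks activity of its own, and several of these genes are induced by interferons, the cytokines that alert cells to viruses. Parp9, Parp10, Parp11, Parp12, Parp14 and Dtx3l were grouped by this background as interferon-linked, Parp1, Parp2 and Parp3 as DNA repair genes, and Parp8, a little-studied enzyme that adds single units, was put in neither group.

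The 4 libraries held between 31301396 and 32228360 reads each. Values are the deposited CPM, where 1 read is worth 0.0308 to 0.0325 CPM. The transfected gene Chrna4 had 2678 and 2290 reads in the Chrna4 libraries, against 1 and 3 reads in the control libraries. Of 15 hepatocyte markers 11 were listed. Hnf4a, a transcription factor that defines hepatocytes, averaged 220 CPM in Chrna4 and 240 CPM in control cells, and the hepatocyte genes Apoc3, Fgb, Cyp2e1 and Cps1 were not among the listed genes. Krt18, Krt8 and Apob averaged 1823, 1370 and 1283 CPM in Chrna4 and 1746, 1393 and 1201 CPM in control cells. They held most of the list's summed level. Alb averaged 8.22 CPM in Chrna4 and 18.4 CPM in control cells, and Apoa1 and Serpina1a lay under 1 CPM in every library. The summed level of the list was 4691 and 4853 CPM in Chrna4 and 4624 and 4762 CPM in control libraries. Of its 9 tested genes 0 rose by limma and 2 fell, Alb (albumin; log2 -1.07, adjusted p = 4.27e-05 by limma) and Ttr (transthyretin; log2 -1.01, adjusted p = 4.27e-05 by limma), both named after their values were seen. Their part in the results that follow was not tested. Of 7 macrophage markers 2 were listed, with a summed level of 3.77 and 4.40 CPM in Chrna4 and 5.27 and 4.45 CPM in control libraries. Of the markers of lymphocytes 0 of 5 were listed, of stellate cells 0 of 5, and of endothelial cells 1 of 5, at 0.358 CPM or less. Across all 11298 tested genes 9.26% were called higher in Chrna4 and 6.66% lower, at an adjusted p under 0.05 by limma-trend. That is 1046 higher and 752 lower, or 58.2% of the calls higher, whereas scaling by library totals gave 812 higher and 1179 lower, or 40.8%. Nothing in the labels ties a replicate to its own culture, and the p-values therefore cover the spread of these libraries alone, which could be technical.

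All 6 interferon-linked members lay higher in both Chrna4 libraries than in either control library, by 1.44-fold to 2.01-fold in the mean. Among the DNA repair members Parp3 lay higher by a similar ratio, 1.62, whereas Parp1 and Parp2 overlapped between the groups. Parp8 was also higher, 1.48-fold. In all, 8 of the 10 members did not overlap between the groups with Chrna4 above, and 28.7% of all tested genes had that pattern. Because the members were chosen with this difference known, nothing is read from that count.

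**Figure D1:**
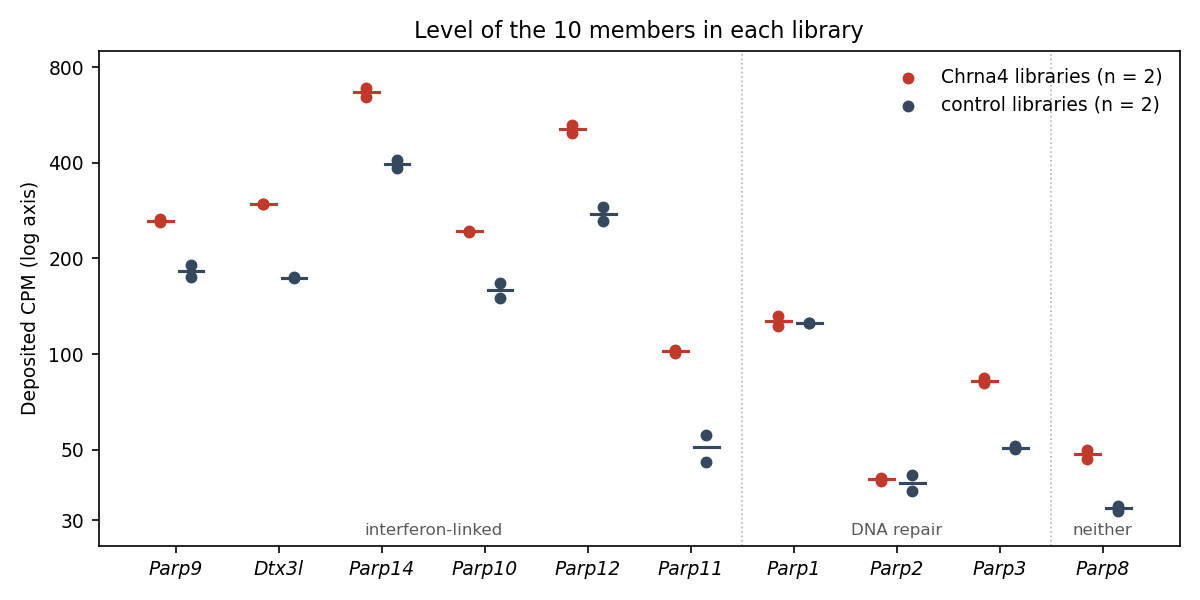
Deposited CPM of each member in each library on a log axis, with Chrna4 libraries to the left of control libraries and short lines at the group means. The pairs of points are separate for 8 members and overlap for Parp1 and Parp2.

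Parp9, Dtx3l and Parp14 are neighbours on chromosome 16 (GRCm38). Parp9 encodes a protein with macrodomains, folds that bind ADP-ribose, and works as a complex with the Dtx3l ligase. Parp9 had 261 and 266 CPM in the Chrna4 libraries, against 190.1 and 175 CPM in control replicates 1 and 3, so the groups did not overlap. Its mean was 263 ± 3.53 CPM in Chrna4 and 183 ± 10.7 CPM in control cells (SD, n = 2 each), a ratio of 1.44 and a difference of 0.53 on the log2(CPM + 1) scale, which is the smallest difference among the interferon-linked members. That scale understates the change of low genes, but no member was low, and the authors' deposited table gives 0.53 for Parp9 without the added 1.

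Dtx3l, which encodes a RING-type ligase of the Deltex family, stood at 298 and 297 CPM in the Chrna4 libraries, against 173 and 175 CPM in the control libraries. The spread within each pair was under 1 CPM in SD, at 0.362 in Chrna4 and 0.864 in control cells, and the ratio of means was 1.71 (log2 0.77). Although the partners lie head to head, their ratio was not constant. Within a library, Dtx3l over Parp9 in CPM was 1.14 and 1.12 in the Chrna4 libraries and 0.912 and 0.998 in control replicates 1 and 3. Those ratios did not overlap between the groups.

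Parp14 encodes a large macrodomain protein known as a partner of the transcription factor STAT6. It stood at 645 and 686 CPM in the Chrna4 libraries, against 386 and 407 CPM in the control libraries. The lowest ratio of any Chrna4 library to any control library was 1.59 and the highest 1.78, and the difference of means was 0.75 on the log2 scale. Parp14 over Dtx3l in CPM overlapped between the groups, at 2.17 and 2.31 in Chrna4 and 2.22 and 2.33 in control libraries. Parp14 over Parp9 did not overlap, at 2.48 and 2.58 in Chrna4 and 2.03 and 2.33 in control libraries.

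In the GENCODE M21 annotation Parp14 (ENSMUSG00000034422) spans positions 35832874 to 35871544 and Dtx3l (ENSMUSG00000049502) positions 35926511 to 35939151, both on the minus strand, and Parp9 (ENSMUSG00000022906) positions 35938470 to 35972605 on the plus strand. The spans of Dtx3l and Parp9 overlap head to head by 682 bases, and 54966 bases without a protein-coding gene separate Parp14 from Dtx3l. An antisense gene, Gm15564, overlaps Parp9 by a further 5854 bases and was not among the listed genes. The sources used here do not give the strand setting of the counting, so reads from these stretches cannot be assigned to a gene. Parp14 shares 1773 bases on its own strand with Gm49730, which was not among the listed genes. How reads from that stretch were counted is not given either. The flanking genes were taken for their position. Kpna1, an importin gene beyond Parp9, had 74.3 and 77.5 CPM in Chrna4 libraries, against 75.4 and 67.7 CPM in control libraries, and was not called (log2 0.09, SE 0.07, adjusted p = 0.479 by limma). On the other side Hspbap1 had 7.96 and 8.42 CPM in Chrna4, against 7.11 and 7.85 CPM in control libraries, and was not called either (log2 0.12, SE 0.13, adjusted p = 0.602 by limma).

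**Figure D2:**
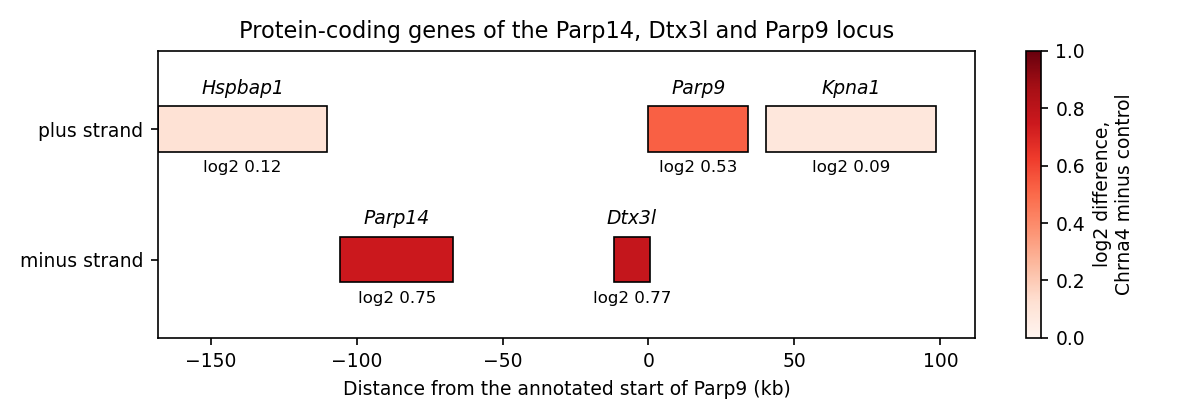
Protein-coding genes around Parp9, drawn to scale by distance in kb from the annotated Parp9 start and by strand, and shaded by the log2 difference, Chrna4 minus control. Parp14, Dtx3l and Parp9 carry differences of 0.75, 0.77 and 0.53, and the flanking Hspbap1 and Kpna1 carry 0.12 and 0.09.

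Parp10, a PARP that adds single ADP-ribose units, lies on chromosome 15 (ENSMUSG00000063268, 76231174 to 76243441, minus strand). It had 243 and 244 CPM in the Chrna4 libraries, against 168 and 150.3 CPM in control replicates 1 and 3, a ratio of means of 1.53 (log2 0.61). The control libraries differed by 1.12-fold for this gene whereas the Chrna4 libraries were within 0.727 CPM (SD), and the groups did not overlap. Parp10 shares 1401 bases on the same strand with Plec, a cytoskeletal linker gene. Plec itself had 1042 and 999 CPM in Chrna4, against 955 and 1005 CPM in control libraries (log2 0.06, SE 0.06, adjusted p = 0.551 by limma).

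Parp12, a zinc-finger PARP that restrains some RNA viruses, lies on chromosome 6 (ENSMUSG00000038507, 39086410 to 39118349, minus strand). It had 525 and 498 CPM in the Chrna4 libraries, against 290 and 262 CPM in the control libraries. The ratio of means was 1.85 (log2 0.89), and the ratio of any Chrna4 library to any control library lay between 1.72 and 2.00. The groups did not overlap.

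Parp11, a small PARP with a domain that binds ADP-ribose chains, had the largest ratio of the 10. It lies on another part of chromosome 6 (ENSMUSG00000037997, 127446840 to 127494261, plus strand). There it shares 2330 bases on the same strand with Gm43633, which was not among the listed genes. Parp11 had 103 and 101 CPM in the Chrna4 libraries, against 55.8 and 46.0 CPM in control replicates 1 and 3, with means of 102 ± 1.54 CPM in Chrna4 and 50.9 ± 6.97 CPM in control cells (SD, n = 2 each). The ratio of means was 2.01 (log2 1.00). It was also the member whose control libraries differed most, by 1.21-fold, so that the ratio of single libraries ran from 1.81 to 2.25, still with no overlap between the groups.

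Promoter windows of RefSeq (GRCm38.p6), from 250 bases before to 50 bases after a start, were found for 7 of the 10 members, 8 windows in all since Parp11 has 2 starts. Parp9, Parp10 and Parp14 had none, so of the interferon-linked members only Dtx3l, Parp12 and Parp11 were searched. The windows were searched on both strands for GAAANNGAAA, a short form of the element bound by interferon regulatory factors, and for TTCNNNGAA, the palindrome bound by STAT factors. The first occurred in 3.44% of all 32851 windows, the second in 8.30% and both together in 0.454%. Of the 8 windows 1 held a match to either, the upstream start of Parp11, which held both. Its GAAANNGAAA match, read on the opposite strand, began 44 bases before the start, and its TTCNNNGAA match began 37 bases before it and shared 3 bases with the first. The match also met the longer GAAANNGAAAC, present in 0.819% of windows. The windows of Dtx3l, Parp12, Parp1, Parp2, Parp3, Parp8 and the downstream Parp11 start had neither. A match is a description of letters, and values summed over a gene do not show which start was used.

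The Parp11 windows are shown since the member with the largest ratio has a match at one start and not at the other, beside the windows of Dtx3l and Parp1, of which Dtx3l lay higher in Chrna4 cells and Parp1 overlapped, and which hold neither motif. They are printed 5′ to 3′ on the gene's strand. Capitals mark the joined matches, and the downstream Parp11, Dtx3l and Parp1 windows have none. Their positions are chr6:127446590-127446889 (plus) and chr6:127453377-127453676 (plus) for Parp11, chr16:35938978-35939277 (minus) for Dtx3l and chr1:180568641-180568940 (plus) for Parp1. The share of G and C was 42.0% at the upstream Parp11 start, 59.0% at the downstream one, 54.3% for Dtx3l and 62.0% for Parp1, against a median of 52.7% over all windows.
Parp11 upstream start: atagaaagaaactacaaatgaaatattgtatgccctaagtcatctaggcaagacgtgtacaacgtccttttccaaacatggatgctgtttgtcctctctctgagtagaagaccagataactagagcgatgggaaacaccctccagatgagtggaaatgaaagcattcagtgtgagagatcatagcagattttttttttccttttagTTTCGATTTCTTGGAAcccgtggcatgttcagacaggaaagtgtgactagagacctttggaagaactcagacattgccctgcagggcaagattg
Parp11 downstream start: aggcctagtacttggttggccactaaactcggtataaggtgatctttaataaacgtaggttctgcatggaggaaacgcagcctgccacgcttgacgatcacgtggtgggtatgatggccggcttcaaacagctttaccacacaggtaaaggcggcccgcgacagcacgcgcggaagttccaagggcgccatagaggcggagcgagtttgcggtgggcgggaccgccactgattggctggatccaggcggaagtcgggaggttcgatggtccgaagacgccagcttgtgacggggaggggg
Dtx3l: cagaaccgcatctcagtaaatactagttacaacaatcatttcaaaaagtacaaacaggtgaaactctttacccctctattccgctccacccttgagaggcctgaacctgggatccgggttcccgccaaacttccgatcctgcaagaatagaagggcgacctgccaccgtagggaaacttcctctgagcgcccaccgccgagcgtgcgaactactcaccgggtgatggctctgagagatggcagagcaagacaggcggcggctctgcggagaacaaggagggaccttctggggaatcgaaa
Parp1: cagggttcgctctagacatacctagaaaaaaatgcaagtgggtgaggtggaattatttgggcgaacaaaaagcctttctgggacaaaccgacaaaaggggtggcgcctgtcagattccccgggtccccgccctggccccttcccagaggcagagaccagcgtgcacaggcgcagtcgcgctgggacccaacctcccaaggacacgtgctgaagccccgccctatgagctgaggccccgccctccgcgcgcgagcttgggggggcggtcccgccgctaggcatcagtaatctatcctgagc

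Control replicate 1 was the higher control library in 4 of the 6 interferon-linked members (Parp9, Parp10, Parp12 and Parp11) and in 0 of the 3 DNA repair members, with 50.2% of all tested genes higher in it. Over the interferon-linked members control 1 stood above control 3 by a median of 0.13 on the log2 scale. For those 4 genes leaving out control replicate 1, the higher value, necessarily enlarged the difference, and leaving out control replicate 3 necessarily reduced it. Parp11 had the widest range, from 0.86 to 1.14. What set the control libraries apart was not tested.

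Among the DNA repair members, Parp1, the main sensor of DNA breaks, lies on chromosome 1 (ENSMUSG00000026496, 180568924 to 180601254, plus strand). It had 132 and 122 CPM in the Chrna4 libraries, against 125.46 and 125.57 CPM in the control libraries. Both control values lay between the Chrna4 values, and the means were 127 ± 6.70 CPM in Chrna4 and 126 ± 0.0748 CPM in control cells (SD, n = 2 each). The log2 difference of 0.02 turned to -0.04 with library totals and to -0.04 without Chrna4 replicate 1.

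Parp2, the second chain-building enzyme at breaks, lies on chromosome 14 (ENSMUSG00000036023, 50807841 to 50821301, plus strand). It stood at 40.9 and 39.8 CPM in the Chrna4 libraries, inside the range of the control libraries at 37.1 and 41.8 CPM. Its log2 difference of 0.04 turned to -0.02 with library totals and to -0.05 without control replicate 1. Neither gene therefore had a direction that held across the settings tried.

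Parp3, on chromosome 9 (ENSMUSG00000023249, 106470322 to 106476949, minus strand), differed from both. It had 80.9 and 84.3 CPM in the Chrna4 libraries, against 50.2 and 51.5 CPM in the control libraries, with no overlap, a ratio of means of 1.62 and a log2 difference of 0.69. Relative to Parp1 in the same library, Parp3 stood at 0.614 and 0.688 in the Chrna4 libraries and at 0.40 and 0.41 in the control libraries. The gene overlaps Rrp9, a ribosomal RNA processing gene on the opposite strand, by 987 bases. Rrp9 had 61.3 and 57.9 CPM in Chrna4, against 51.2 and 46.2 CPM in control libraries, and rose (log2 0.29, SE 0.08, adjusted p = 0.0260 by limma). Its part in the Parp3 difference was not tested.

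Parp8, on chromosome 13 (ENSMUSG00000021725, 116854820 to 117025537, minus strand), had 46.9 and 50.1 CPM in the Chrna4 libraries, against 33.3 and 32.2 CPM in the control libraries, a ratio of 1.48 (log2 0.55) with no overlap.

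As a group, the interferon-linked members had a median log2 difference of 0.76, with a range of 0.53 to 1.00, and the DNA repair members a median of 0.04, with a range of 0.02 to 0.69. The median over all tested genes was -0.0028. The difference between these medians, interferon-linked minus DNA repair, was 0.72, and it lay between 0.66 and 0.76 under the other settings. As reported, the DNA repair median is the value of Parp2 alone, so the difference of medians does not describe Parp3. Parp3, at 0.69, lies within the range of the interferon-linked members. So does Parp8, which is in neither group, at 0.55. In bulk libraries a change in every cell and a change in a share of the cells, for instance those that took up plasmid, cannot be told apart.

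**Figure D3:**
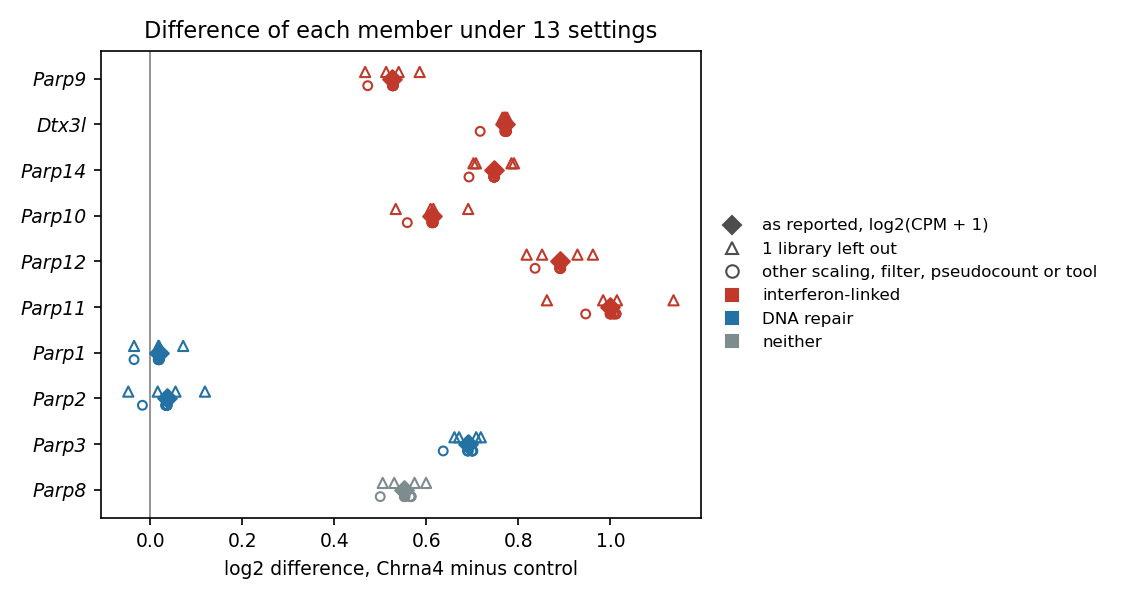
Log2 difference of each member, Chrna4 minus control, as reported and under 12 other settings. Triangles leave out 1 library, and circles use another scaling, filter, pseudocount or tool. The lowest value among the 8 members other than Parp1 and Parp2 is 0.47, for Parp9.

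Levels of different genes were compared per kb of the longest annotated transcript. In control cells the order of means was Parp12 at 85.3 ± 6.05 CPM per kb, Parp14 at 53.4 ± 2.03, Parp9 at 51.5 ± 3.00, Parp10 at 46.7 ± 3.62, Dtx3l at 32.8 ± 0.163 and Parp1 at 32.4 ± 0.0193 (SD, n = 2 each). Parp2 followed at 18.2 ± 1.52 CPM per kb, Parp3 at 17.2 ± 0.320, Parp11 at 13.6 ± 1.86 and Parp8 at 9.53 ± 0.213. The neighbours Parp14 and Parp9, and Parp2 and Parp3, overlapped between libraries. The libraries of Dtx3l and Parp1 did not overlap, but their means differed little, and 2 libraries per group do not settle so close an order. With all annotated exons as the length, Dtx3l at 30.4 and Parp1 at 23.7 CPM per kb stood further apart. Parp3 at 13.7 CPM per kb then stood before Parp2 at 10.9, and the other places held. The libraries of Parp9 at 37.5 and Parp10 at 37.2 CPM per kb then overlapped.

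In Chrna4 cells the first 6 places were the same, from Parp12 at 158 ± 5.98 to Parp1 at 32.8 ± 1.73 CPM per kb. Below them Parp3 at 27.9 ± 0.792 and Parp11 at 27.3 ± 0.411 stood before Parp2 at 18.6 ± 0.360 and Parp8 at 14.1 ± 0.665, and the libraries of Parp3 and Parp11 overlapped. Dtx3l, next to Parp1 in control cells, was at 56.0 ± 0.0682 CPM per kb in Chrna4 cells. With all annotated exons as the length, Parp10 at 56.9 CPM per kb stood before Parp9 at 54.0 in Chrna4 cells, without overlap of their libraries. Parp3 at 22.3 and Parp11 at 14.6 CPM per kb then did not overlap either, and the other places held.

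**Figure D4:**
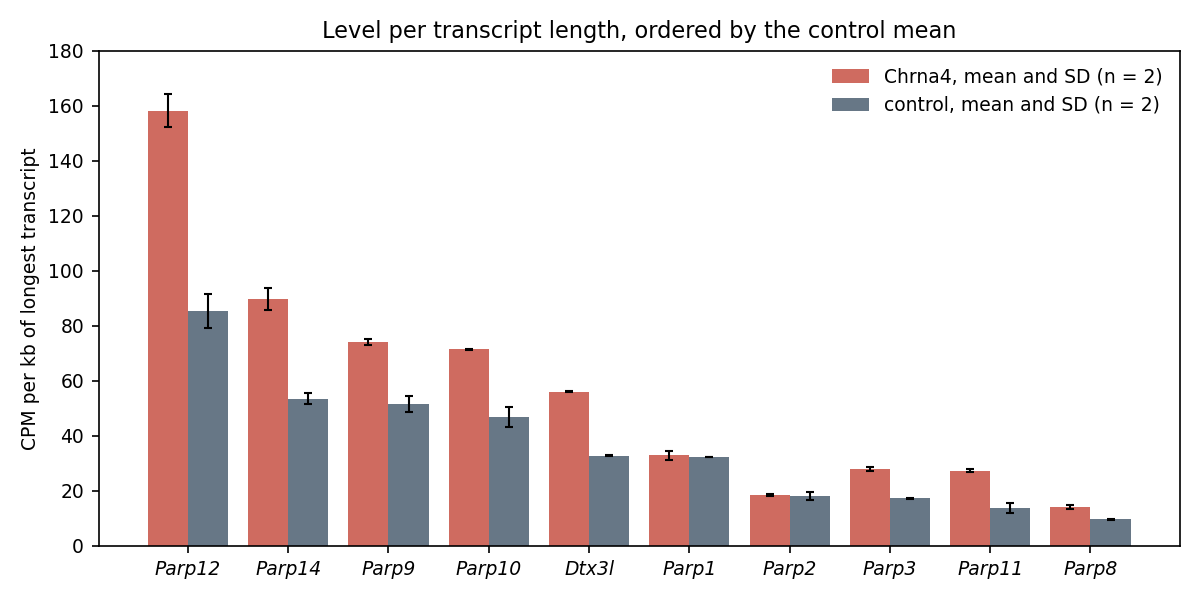
Mean CPM per kb of the longest transcript with SD (n = 2 per group), Chrna4 bars to the left of control bars, genes ordered by the control mean. Parp12 leads in both groups, and Parp3 and Parp11 stand above Parp2 in Chrna4 cells but below it in control cells.

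Likeness of pattern was measured as the distance between log2(CPM + 1) values over the 4 libraries, each gene centred on its own mean. The nearest of 11297 genes to Parp9 were Erap1 at 0.0140, Lgals8 at 0.0218 and Triobp at 0.0231 log2 units. Of the members, Parp8 came 39th in that order at 0.0754, Parp10 came 60th, Parp3 323rd, Dtx3l 576th and Parp14 585th. Farther off were Parp12, 1490th at 0.372, and Parp11, 3686th at 0.488, then Parp1, 4640th at 0.524, and Parp2, 4867th at 0.533. The nearest to Parp1 were Golga7b at 0.0118, Cnot2 at 0.0121 and Ube2m at 0.0140, with Parp2 at rank 2204. The values were centred but not scaled, so a distance also grows with a gap in the size of the difference between the groups. These distances rest on 4 libraries in 2 groups and are a description.

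Of the other 7 PARP family genes, 2 rose and 0 fell (median log2 0.07; 3 higher and 1 lower at an unadjusted p under 0.05, and 2 higher and 0 lower by edgeR, limma-voom and DESeq2). Zc3hav1, the zinc-finger antiviral protein that binds viral RNA and has no ADP-ribosyl transfer activity of its own, had 511 and 530.4 CPM in the Chrna4 libraries, against 386 and 349 CPM in the control libraries (log2 0.50, SE 0.06, adjusted p = 0.000156 by limma). Tiparp, a target of the aryl hydrocarbon receptor, had 85.2 and 81.9 CPM in Chrna4, against 66.4 and 53.3 CPM in control libraries (log2 0.48, SE 0.09, adjusted p = 0.00385 by limma). Both were also higher in control replicate 1 than in control replicate 3. Tiparp had a log2 difference of 0.64 without control replicate 1 and 0.33 without control replicate 3. The tankyrase genes Tnks and Tnks2, Parp4, Parp6 and Parp16 were not called, with log2 differences from -0.28 to 0.20.

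Genes that remove ADP-ribose showed 0 higher and 1 lower of 6 tested (median log2 -0.10; 1 higher at an unadjusted p under 0.05, 0 by edgeR, limma-voom or DESeq2). The decrease was in Enpp1, a membrane enzyme that splits nucleotide pyrophosphates, with 17.7 and 17.5 CPM in Chrna4 libraries, against 23.5 and 25.7 CPM in control libraries (log2 -0.46, SE 0.10, adjusted p = 0.00612 by limma). Parg, the main enzyme that degrades ADP-ribose chains, had 72.0 and 71.7 CPM in Chrna4, against 63.5 and 66.3 CPM in control libraries, and was not called (log2 0.15, adjusted p = 0.169 by limma). Adprh, which frees ADP-ribose from arginine, was at 28.6 and 29.9 CPM in Chrna4 and 32.2 and 29.7 CPM in control libraries (adjusted p = 0.599 by limma).

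Of 9 PARP partners, readers of ADP-ribose and other Deltex ligases, 0 were called in either direction by limma, edgeR, limma-voom or DESeq2, and at an unadjusted p under 0.05 there were 1 higher and 2 lower. The median log2 difference was 0.00. Dtx4, another Deltex ligase, had 225 and 219 CPM in Chrna4, against 203 and 204 CPM in control libraries (log2 0.13, SE 0.06, adjusted p = 0.143 by limma). It was called without control replicate 1 (adjusted p = 0.0473) and without control replicate 3 (adjusted p = 0.0358 by limma), where the spread is measured in the Chrna4 pair alone. H2afy, the macrodomain histone gene, was at 162 and 149 CPM in Chrna4 and 160 and 145 CPM in control libraries (adjusted p = 0.828 by limma).

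Of 10 tested genes of NAD synthesis and use, the supply of the PARP substrate, 2 rose and 0 fell (median log2 -0.02; 2 lower at an unadjusted p under 0.05, 0 lower by edgeR, limma-voom and DESeq2). Nampt, the rate-limiting enzyme of NAD salvage from nicotinamide, had 271 and 267 CPM in the Chrna4 libraries, against 219 and 188 CPM in the control libraries (log2 0.41, SE 0.07, adjusted p = 0.00215 by limma). Pnp, purine nucleoside phosphorylase, which also splits nicotinamide riboside, had 366 and 351 CPM in Chrna4, against 204 and 176 CPM in control libraries (log2 0.92, SE 0.07, adjusted p = 3.98e-06 by limma). Pnp has the close paralog Pnp2, and the sources used here do not say how reads matching both were counted. Both were higher in control replicate 1 than in control replicate 3. A further 6 listed genes of this set lay under the minimum of 1 CPM.

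Parp1 and Parp2 act with the genes of single-strand break repair. Of 23 genes of single-strand break and base excision repair, 1 rose and 0 fell (median log2 0.03; 2 higher and 0 lower at an unadjusted p under 0.05; 0 lower by edgeR, limma-voom and DESeq2). The call was Lig1, the ligase that joins Okazaki fragments, with 123 and 121 CPM in Chrna4, against 106.3 and 105.9 CPM in control libraries (log2 0.19, SE 0.06, adjusted p = 0.0440 by limma). It was lost with library totals (adjusted p = 0.127), without Chrna4 replicate 1 (0.338), without Chrna4 replicate 2 (0.284) and by DESeq2 (0.0663). Pcna, the sliding clamp, had 111 and 116 CPM in Chrna4 and 111 and 101 CPM in control libraries (adjusted p = 0.380 by limma). Lig3, the ligase of single-strand break repair, stood at 66.2 and 65.0 CPM in Chrna4 and 57.2 and 68.4 CPM in control libraries (adjusted p = 0.657 by limma). Pcna was called higher without control replicate 1 (log2 0.16, adjusted p = 0.0325 by limma). Lig3 was called higher without control replicate 3 (log2 0.19, adjusted p = 0.0368 by limma), and its difference turned to -0.06 without control replicate 1.

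End joining of double-strand breaks gave 1 higher and 0 lower of 13 genes (median log2 0.07; 3 higher and 1 lower at an unadjusted p under 0.05; 0 lower by edgeR, limma-voom and DESeq2). Rif1, which protects broken ends from resection, had 129 and 133 CPM in Chrna4, against 106 and 106 CPM in control libraries (log2 0.30, SE 0.06, adjusted p = 0.00464 by limma). That call was lost without Chrna4 replicate 2 (adjusted p = 0.102 by limma). The Ku genes Xrcc5 and Xrcc6 were not called, with 89.2 and 88.8 CPM in Chrna4 against 96.6 and 102.5 CPM in control libraries for Xrcc5. Xrcc6 had 60.0 and 61.4 CPM in Chrna4, against 55.8 and 51.7 CPM in control libraries. Without control replicate 1 both were called, Xrcc5 lower (adjusted p = 0.0087) and Xrcc6 higher (adjusted p = 0.0146 by limma), and with library totals Xrcc5 was called lower (adjusted p = 0.0405 by limma).

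Genes of interferon receptors and their signalling showed 11 higher and 1 lower of 19 tested, with a median log2 difference of 0.23, and 13 higher and 1 lower at an unadjusted p under 0.05. The number higher was 9 with library totals, and leaving out 1 library gave between 8, without either Chrna4 library, and 13, without control replicate 3. This list, like the others, was chosen with earlier results of these data known. Its calls and p-values are therefore no separate support for the members' difference. Irf1, an interferon regulatory factor, had 265 and 256 CPM in Chrna4, against 138 and 128 CPM in control libraries (log2 0.96, SE 0.06, adjusted p = 8.89e-07 by limma). Irf7, the factor that amplifies type I interferon, had 943 and 898 CPM in Chrna4, against 469 and 373 CPM in control libraries (log2 1.13, SE 0.09, adjusted p = 4.12e-06 by limma). Both genes rose without overlap between the groups. So did Usp18, which removes ISG15 and dampens the interferon receptor, with 597 and 555 CPM in Chrna4 against 281 and 216 CPM in control libraries (log2 1.22, SE 0.10, adjusted p = 5.15e-06 by limma). Control replicate 1 stood above control replicate 3 by 1.26-fold for Irf7 and 1.30-fold for Usp18, more than for any member. Without control replicate 1 the log2 difference was 1.30 for Irf7 and 1.41 for Usp18, and without control replicate 3 it was 0.97 for Irf7 and 1.03 for Usp18. The decrease was in Ifngr1, a subunit of the interferon gamma receptor (log2 -0.22, adjusted p = 0.0360 by limma), which is named here because it was the list's single lower call, with its value already seen. That call was lost without Chrna4 replicate 1 and without Chrna4 replicate 2.

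**Figure D5:**
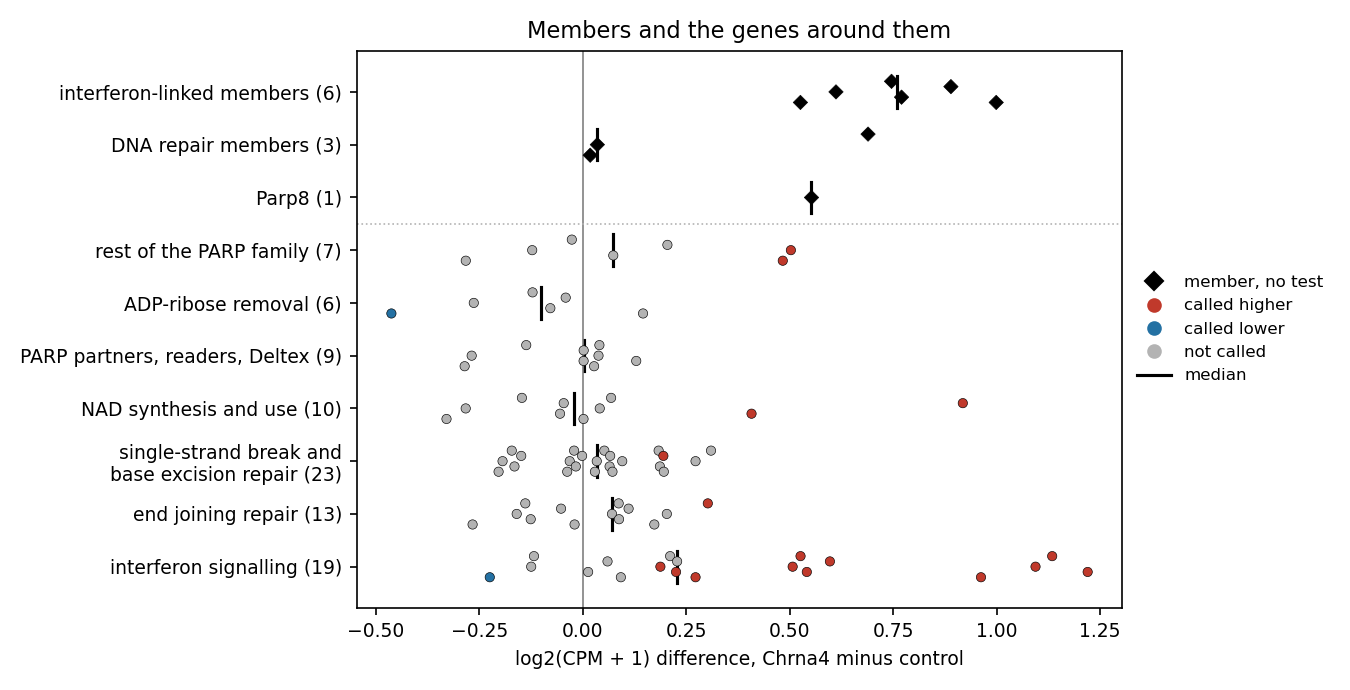
Log2(CPM + 1) difference, Chrna4 minus control, of the members and of each tested gene in 7 lists around them, with a line at each list's median and the number of genes in brackets. Members carry no test. Only the interferon signalling list has a median above 0.1 among the 7 lists.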

How the data were processed

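RNA-seq libraries of AML12 cells were grouped by the plasmid their labels give, 2 per group. The submitters' processing notes name TopHat2, HTSeq, mm10 and GRCm38, with no settings. Each library's deposited signal is in CPM, which the authors took over a scaled library size, and 100% of values were whole multiples of 1 read's worth within 0.01 reads. TMM factors computed from those reads matched that scaling to within a relative 2.2e-16. Per the file headers the authors' own comparison gives a log2 ratio of control to Chrna4, whose sign was turned round here. Its deposited p-value columns were not used.

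All genes whose mean reached 1 CPM (11298 of 13422, all 10 members included) were fitted with limma-trend on log2(CPM + 1) (limma 3.58.1, R 4.3.3), and p-values adjusted by Benjamini and Hochberg were called under 0.05. A test on counts was an alternative, since the deposited values are not raw counts. On recovered reads edgeR 4.0.16 called 1034 genes higher and 768 lower, and DESeq2 1.42.0 and limma-voom were also run. The fit was tested on simulated data. Members and lists were chosen with earlier results of these data known. The lists are the rest of the PARP family, ADP-ribose removal, PARP partners and Deltex ligases, NAD synthesis and use, single-strand break and base excision repair, end joining and interferon signalling. Genes named were every member, up to 4 called genes per list by smallest adjusted p, or up to 2 of highest level where fewer than 2 were called, and the 3 nearest in pattern to Parp9 and to Parp1. A gene of the interferon signalling list that this rule takes is not reported here. Hpf1, Naprt and Paxx were matched by identifier. Protein sequences were not used here.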

Additional observations from a re-analysis of the deposited data

How the results depend on the processing

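Scaling by library totals lowered the median of all genes to -0.05. With it 1179 genes were called lower, and the lists had 1 lower in the rest of the PARP family, 1 lower among PARP partners, 1 lower in end joining and 0 higher in base excision repair. By DESeq2 base excision repair also had 0 higher. At an adjusted p under 0.01, 670 genes were higher and 293 lower, with 0 higher in base excision repair and 0 lower in interferon signalling. Leaving out 1 library leaves the other group's pair as the only measure of the spread, and the lone library is assumed to vary likewise. Calls then ran from 604 to 1712 higher and from 324 to 1296 lower, fewest without Chrna4 replicate 2. The counts per list ran from 0 to 1 higher and 0 to 2 lower for PARP partners, 0 to 3 higher for base excision repair, 0 to 3 higher and 0 to 1 lower for end joining, 0 to 1 lower for the rest of the PARP family, 1 to 2 lower for ADP-ribose removal and 8 to 13 higher and 0 to 1 lower for interferon signalling. At an adjusted p under 0.01 interferon signalling had 8 higher. Alb, Ttr and Rrp9 were not followed through the alternatives. The cause of these shifts was not tested. No paired analysis was possible because the groups share only replicate number 1. With 2 libraries per group the spread of a single gene is poorly known. Every member had at least 1043 reads per library. Even so, counting error alone can exceed the spread of the closest pairs, such as Parp1 in control cells at an SD of 0.0748 CPM.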
